A study of Mus musculus with 90 samples.

Results

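The endogenous opioid system was followed through 7 genes, the opioid peptide precursors Penk, Pdyn and Pnoc and the opioid receptors Oprm1, Oprd1, Oprk1 and Oprl1. They were taken from the count table by their mouse Ensembl gene identifiers, and all 7 were found among 37991 genes. The study asked how the brain of a territory-holding male mouse responds to a rival. Residents were C57BL/6J males that had been housed with a female. Intruder animals were shown an unfamiliar BALB/cJ male in a wire mesh cage for 5 min, and control animals were shown the same cage holding a paper cup. Residents were killed 30, 60 or 120 min later, and the amygdala, frontal cortex and hypothalamus were dissected. Messenger RNA was sequenced in 90 libraries from 32 males, 28 of which gave all 3 regions. Each of the 18 groups held 5 libraries, except that the control hypothalamus at 30 min held 3 and both frontal cortex groups at 120 min held 6. The design text says that RNA samples were pooled to make libraries while each label names 1 animal, so p-values measure the spread between libraries named for different animals.

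Libraries held 38.6 to 58.86 M reads assigned to genes, with a median of 49.005 M reads. The 7 genes are placed on chromosomes 4 (Penk and Oprd1), 2 (Pdyn and Oprl1), 14 (Pnoc), 10 (Oprm1) and 1 (Oprk1). Penk had the deepest counts, with a median of 5897 reads per library. Oprm1 had the shallowest, with a median of 95 reads and as few as 6 in 1 frontal cortex library, so counting error weighs most on its values there. Levels are given in CPM, gene reads per M reads of the library after TMM scaling over all 90 libraries. They can be compared between samples for 1 gene and not between genes, because they are not per transcript length. Regional identity was checked with marker genes. A list of 10 hypothalamic genes, among them Hcrt, Pmch, Avp and Oxt, summed to 817 to 1999 CPM in every hypothalamus library, to at most 96.5 CPM in the amygdala and to at most 44.9 CPM in the frontal cortex. A list of 8 cortical glutamatergic genes summed to 1543 to 2210 CPM in the frontal cortex and to at most 227 CPM in the hypothalamus. A list of 8 amygdala genes did not set that dissection apart, at 289 to 618 CPM in the amygdala against 330 to 483 CPM in the hypothalamus. All 30 min libraries carry the tag ISO in the count table's header and all 60 and 120 min libraries carry CERV, while the design text names cervical dislocation for every animal. Differences between 30 min and the later times cannot be told apart from whatever that tag marks. Each comparison of intruder with control libraries lies within 1 tag.

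Opioid peptides are cut from larger precursors at pairs of basic residues and packed into dense-core vesicles. Penk gives the enkephalins, which act mainly on the delta and mu receptors (Oprd1 and Oprm1). Pdyn gives the dynorphins and neoendorphins, which favour the kappa receptor (Oprk1), and Pnoc gives nociceptin, the ligand of Oprl1. All 4 receptors couple to inhibitory G proteins and dampen neuronal firing and transmitter release. In the forebrain Penk marks indirect pathway medium spiny neurons of the striatum and Pdyn marks direct pathway ones. Both are also made in amygdala and hypothalamic neurons, where opioid signalling bears on stress, reward and social behaviour.

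The coding sequences of the precursors show how these ligands are related, since the active peptides begin with a closely related short core. In the Gencode M21 transcripts (GRCm38), the longest reading frame of Penk encodes 268 residues with 7 copies of Tyr-Gly-Gly-Phe. Of these, 6 continue with methionine (Met-enkephalin) and 1 with leucine (Leu-enkephalin). Pdyn encodes 248 residues with 3 copies, all continuing with leucine. Pnoc encodes 187 residues with 1 copy, in which the core is Phe-Gly-Gly-Phe followed by threonine. The copies are shown with the codons of the core and the residue after it in capitals and the flanking codons in lower case.
Penk copy 1: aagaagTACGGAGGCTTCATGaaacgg
Penk copy 2: aaacggTACGGAGGCTTCATGaagaag
Penk copy 3: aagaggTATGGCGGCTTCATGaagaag
Penk copy 4: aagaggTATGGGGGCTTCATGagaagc
Penk copy 5: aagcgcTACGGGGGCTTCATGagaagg
Penk copy 6: aagaggTATGGGGGCTTCCTGaagcgc
Penk copy 7: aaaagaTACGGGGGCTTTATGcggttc
Pdyn copy 1: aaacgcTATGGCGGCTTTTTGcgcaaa
Pdyn copy 2: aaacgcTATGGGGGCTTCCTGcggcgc
Pdyn copy 3: aagcgcTATGGTGGTTTCCTGcggcgt
Pnoc copy 1: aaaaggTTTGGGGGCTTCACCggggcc
Every copy is preceded by a pair of lysine or arginine codons. The same kind of pair follows all copies except Penk copies 4 and 7 and the Pnoc copy. Whether a peptide ends at the pair that follows cannot be read from these codons. Reads counted on a precursor gene therefore stand for all of its peptides together.

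The precursors had different regional orders in control animals. Penk was highest in the amygdala, at 294 ± 189 CPM (SD, n = 15), and lower in the frontal cortex, at 116 ± 65.3 CPM (n = 16), and in the hypothalamus, at 97.5 ± 20.5 CPM (n = 13). The amygdala exceeded the hypothalamus by 1.57 ± 0.28 (log2 fold change ± SE, 2.97-fold, edgeR quasi-likelihood test with Benjamini-Hochberg adjustment over 18337 genes, adjusted p = 9.76e-07) and the frontal cortex by 1.40 ± 0.26 (2.64-fold, adjusted p = 1.64e-06). The step to the frontal cortex was 2.16 ± 0.46 in 30 min animals alone and was not called in 120 min animals alone, at 0.89 ± 0.42 (edgeR adjusted p = 0.0723). Frontal cortex and hypothalamus did not pass the test for Penk, with a hypothalamus minus frontal cortex difference of -0.17 ± 0.27 (95% interval -0.71 to 0.36, edgeR adjusted p = 0.555). In intruder libraries the same difference was -0.68 with an edgeR adjusted p of 0.012. Single libraries overlapped widely between regions: control amygdala libraries held 134 to 773 CPM of Penk and control frontal cortex libraries 44.0 to 235 CPM. In bulk tissue, fewer cells of a type and less RNA per cell cannot be told apart.

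Pdyn and Pnoc were highest in the hypothalamus. Pdyn stood at 63.6 ± 17.4 CPM there (SD, n = 13), at 45.7 ± 29.4 CPM in the amygdala (n = 15) and at 33.0 ± 7.73 CPM in the frontal cortex (n = 16). The hypothalamus exceeded the frontal cortex by 0.95 ± 0.22 on the log2 scale (1.93-fold, edgeR adjusted p = 5.54e-05), a call that was not made in 60 min animals alone (0.73 ± 0.36, edgeR adjusted p = 0.0624). The middle place of the amygdala was not firm. It exceeded the frontal cortex by 0.50 ± 0.21 (edgeR adjusted p = 0.0285), a call that was lost when the animal was kept as a block (0.38 ± 0.25, adjusted p = 0.164), and it differed from the hypothalamus by -0.45 ± 0.22 (edgeR adjusted p = 0.0579). Pnoc was ordered more sharply, at 20.1 ± 4.56 CPM in the hypothalamus, 12.7 ± 3.23 CPM in the amygdala and 5.77 ± 0.827 CPM in the frontal cortex. All 3 steps of Pnoc passed, by 1.82 ± 0.11 between hypothalamus and frontal cortex, 1.15 ± 0.10 between amygdala and frontal cortex and -0.67 ± 0.11 between amygdala and hypothalamus (edgeR adjusted p from 1.87e-26 to 5.60e-08).

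The receptors Oprm1, Oprk1 and Oprl1 shared 1 order, hypothalamus over amygdala over frontal cortex. Oprm1, the mu receptor on which morphine acts, stood at 4.47 ± 1.16 CPM in the control hypothalamus, 2.04 ± 0.580 CPM in the amygdala and 0.580 ± 0.204 CPM in the frontal cortex. Its hypothalamus to frontal cortex ratio of 8.06-fold (log2 3.01 ± 0.17, edgeR adjusted p = 6.35e-28) was the steepest among the 7 genes. Oprk1, the dynorphin receptor, stood at 34.8 ± 2.44, 18.3 ± 5.18 and 9.01 ± 2.97 CPM, a 3.96-fold difference between hypothalamus and frontal cortex (log2 1.98 ± 0.16, edgeR adjusted p = 6.23e-19). Oprl1, the nociceptin receptor, stood at 128 ± 7.48, 74.0 ± 9.59 and 42.5 ± 2.33 CPM, and the hypothalamus exceeded the frontal cortex 3.02-fold (log2 1.59 ± 0.05, edgeR adjusted p = 8.40e-45). Neighbouring steps also passed for these 3 receptors, with amygdala minus frontal cortex differences of 0.81 to 1.89 and amygdala minus hypothalamus differences of -1.12 to -0.78 on the log2 scale.

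Oprd1, the delta receptor, ran the other way. It was highest in the frontal cortex, at 17.2 ± 4.57 CPM, followed by the amygdala at 10.7 ± 1.8 CPM and the hypothalamus at 6.65 ± 0.847 CPM. The hypothalamus was 2.50-fold below the frontal cortex (log2 -1.32 ± 0.10, edgeR adjusted p = 7.93e-21) and the amygdala 1.55-fold below it (log2 -0.63 ± 0.09, edgeR adjusted p = 4.38e-09). The step between amygdala and frontal cortex was not seen in 60 min animals alone, at -0.06 ± 0.16 (edgeR adjusted p = 0.768), the time at which Oprd1 was lowest in the frontal cortex.

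Regional differences were common among all genes. Of the 7 opioid genes, 5 were higher and 1 lower in the hypothalamus than in the frontal cortex, where 42.4% and 39.6% of all tested genes were higher and lower. For the amygdala against the frontal cortex, 6 were higher and 1 lower, against 36.4% and 31.2% of all genes. For the amygdala against the hypothalamus, 2 (Penk and Oprd1) were higher and 4 lower, against 36.8% and 35.5% of all genes. Regional calls were thus also made for most other genes.

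**Figure D1:**
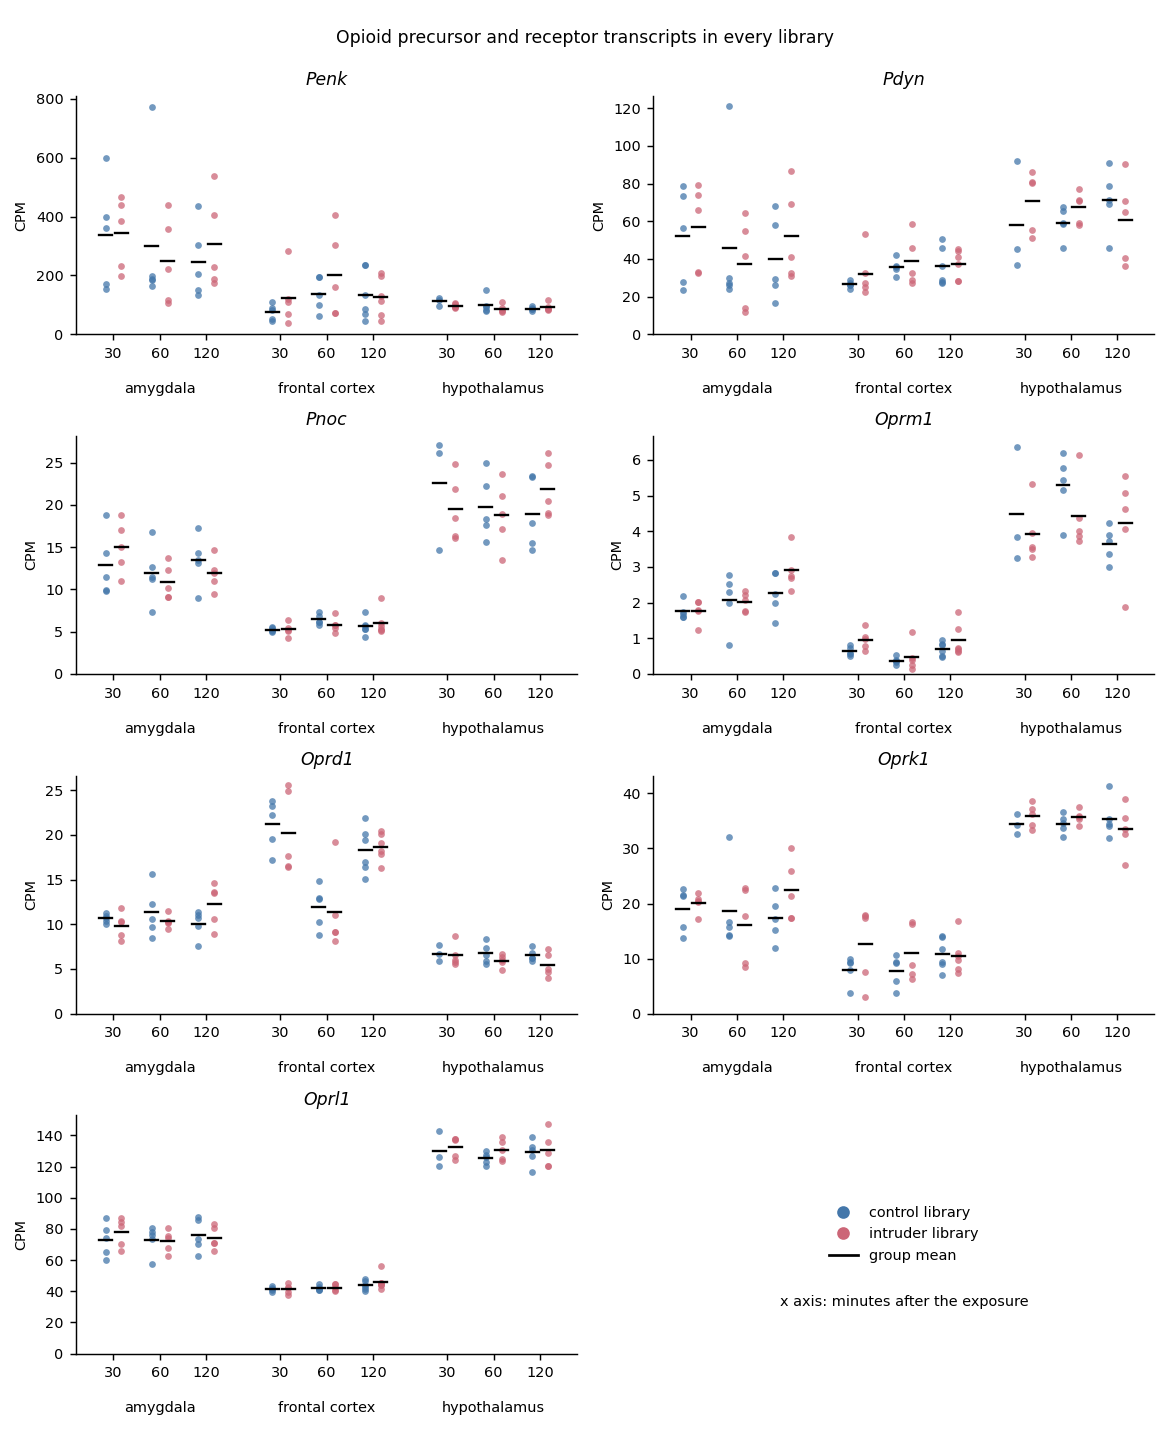
Level of each of the 7 opioid genes in every library, in CPM after TMM scaling on a linear axis. Points are libraries by region, time and condition and bars are group means. Penk and Pdyn spread several-fold within amygdala groups, Oprl1 stays within 37.8 to 56.3 CPM in the frontal cortex, and Oprd1 alone has its highest levels in the frontal cortex.

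The spread between animals was much larger for some of these genes than for others, and it depended on the region. In the amygdala, Penk had a biological coefficient of variation of 51.5% and Pdyn of 54.6%, larger than that of 98.2% and 98.5% of the genes tested there. Frontal cortex Penk reached 55.3%, larger than that of 99.0% of genes, and Oprk1 39.1%. In the hypothalamus Penk and Oprk1 were steadier, at 14.5% and 7.53%. Pdyn stood at 25.3% there, below its amygdala value and near the 23.1% of the frontal cortex. Oprl1 varied least in all 3 regions, at 12.3% in the amygdala, 6.94% in the frontal cortex and 6.09% in the hypothalamus. Within the 6 amygdala groups the coefficient of variation of Penk over libraries was 35.5 to 59.5% in 5 groups and 87.8% in the 60 min controls. In that last group 1 library stood apart: 4 libraries held 163, 185, 186 and 197 CPM of Penk, and the library of replicate 6 held 773 CPM. The same library held 121 CPM of Pdyn, where the others held 24.0 to 29.6 CPM.

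Penk, Pdyn and Oprk1 moved together from animal to animal. Correlations were taken on log2(CPM + 1) deviations from the group means, so that region, time and condition do not enter them, and p-values came from 100000 permutations within groups. In the amygdala, Penk followed Pdyn with Pearson's r = 0.97 (Spearman's rho = 0.97, n = 30 libraries, permutation adjusted p = 7.87e-05) and Oprk1 with r = 0.89 (rho = 0.89, permutation adjusted p = 7.87e-05). Pnoc and Oprl1 formed a second pair there (r = 0.85, rho = 0.84, permutation adjusted p = 7.87e-05) and ran against the first, with r = -0.75 between Penk and Oprl1 (rho = -0.68, permutation adjusted p = 0.00063) and r = -0.70 between Penk and Pnoc (rho = -0.66, permutation adjusted p = 0.00137). Frontal cortex Penk followed Pdyn (r = 0.85, rho = 0.84) and Oprk1 (r = 0.79, rho = 0.81, both permutation adjusted p = 7.87e-05, n = 32). The hypothalamus had other pairs: Pdyn with Oprl1 (r = 0.89, rho = 0.84), Penk with Pnoc (r = 0.75, rho = 0.85, both permutation adjusted p = 7.87e-05) and Oprm1 with Oprd1 (r = 0.71, rho = 0.65, permutation adjusted p = 0.00113, n = 28). Adjustment covered 63 pairs of members, a family of tests chosen after the data had been seen. Each of these 10 relations kept its sign without the pair of libraries farthest from the median, with r from 0.57 to 0.97 in size.

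Several marker lists moved with these genes, that of striatal medium spiny neurons most closely with Penk and Pdyn in the amygdala. A list of 10 such genes, among them Drd1, Drd2, Adora2a, Ppp1r1b and Rgs9, summed to 534 to 3890 CPM over amygdala libraries, 426 to 1997 CPM over frontal cortex libraries and 390 to 562 CPM over hypothalamus libraries, and none of the 10 was under 1 CPM in every library of a region. Adora2a, the adenosine receptor of indirect pathway neurons, ranged from 2.95 to 176 CPM in the amygdala and from 2.33 to 86.4 CPM in the frontal cortex. The mean log2(CPM + 1) of the list, called the striatal score here, tracked Penk with r = 0.97 in the amygdala (rho = 0.95, 0.96 without the 2 farthest libraries) and r = 0.98 in the frontal cortex (rho = 0.98, 0.98 without them), both with a permutation adjusted p of 0.000248. Pdyn followed it with r = 0.95 in the amygdala and 0.80 in the frontal cortex (rho = 0.96 and 0.78, permutation adjusted p = 0.000248 and 0.000512). Oprk1 followed it with r = 0.84 and 0.78 (rho = 0.87 and 0.82, permutation adjusted p = 0.00039 and 0.000248). Oprl1 and Pnoc ran against the score in the amygdala, with r = -0.79 and -0.69 (rho = -0.71 and -0.61, permutation adjusted p = 0.000512 and 0.00468). In the hypothalamus Penk had r = 0.67 with the score (rho = 0.51, permutation adjusted p = 0.0234), which was 0.46 without the 2 farthest libraries. Of 273 tests of the 7 genes against 13 marker lists in 3 regions, 63 had a permutation adjusted p below 0.05, of which 32 fell in the amygdala. Whether dissections took in unequal amounts of striatal tissue was not tested.

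Markers of other cell types moved with the same genes in the amygdala. A list of 6 oligodendrocyte genes, which summed to 1866 to 6521 CPM there, followed Penk with r = 0.85, Pdyn with r = 0.86 and Oprk1 with r = 0.78 (rho = 0.87, 0.87 and 0.78, permutation adjusted p from 0.000248 to 0.000758). It ran against Oprl1 with r = -0.77 and against Pnoc with r = -0.57 (rho = -0.79 and -0.60, permutation adjusted p = 0.000248 and 0.0151). The 8 cortical glutamatergic genes, at 397 to 1378 CPM, ran against Penk, Pdyn and Oprk1 with r = -0.79, -0.79 and -0.71 (rho = -0.70, -0.76 and -0.68, permutation adjusted p from 0.000248 to 0.000642). Of these 8 relations, all kept their sign without the 2 farthest libraries, with r from 0.58 to 0.81 in size. The 8 thalamus and habenula genes followed the same 3 opioid genes with r from 0.65 to 0.72 (permutation adjusted p from 0.00253 to 0.0119), and Oprl1 ran against the microglia list with r = -0.75 (permutation adjusted p = 0.000862). In the frontal cortex the oligodendrocyte list had a permutation adjusted p of at least 0.05 with every member, and the cortical glutamatergic list ran against Penk (r = -0.60), Pdyn (r = -0.56) and Oprk1 (r = -0.49, permutation adjusted p from 0.00872 to 0.037).

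Further relations involved the claustrum, hypothalamic and amygdala lists. Frontal cortex Oprk1 had r = 0.86 with 6 claustrum and deep layer genes (rho = 0.78, 0.73 without the 2 farthest libraries, permutation adjusted p = 0.000248), whose sum ranged from 106 to 224 CPM. Pdyn and Oprl1 in the hypothalamus followed the hypothalamic list, with r = 0.89 and 0.84 (rho = 0.86 and 0.78, permutation adjusted p = 0.000248), and ran against the amygdala list, with r = -0.82 and -0.81 (rho = -0.76 and -0.75, permutation adjusted p = 0.00178 and 0.00143). Oprl1 also followed the amygdala list within the amygdala, with r = 0.77 (rho = 0.74, permutation adjusted p = 0.00109), while Penk ran against it, with r = -0.73 (rho = -0.60, permutation adjusted p = 0.00178). Their part in the spread of the opioid genes was not tested.

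**Figure D2:**
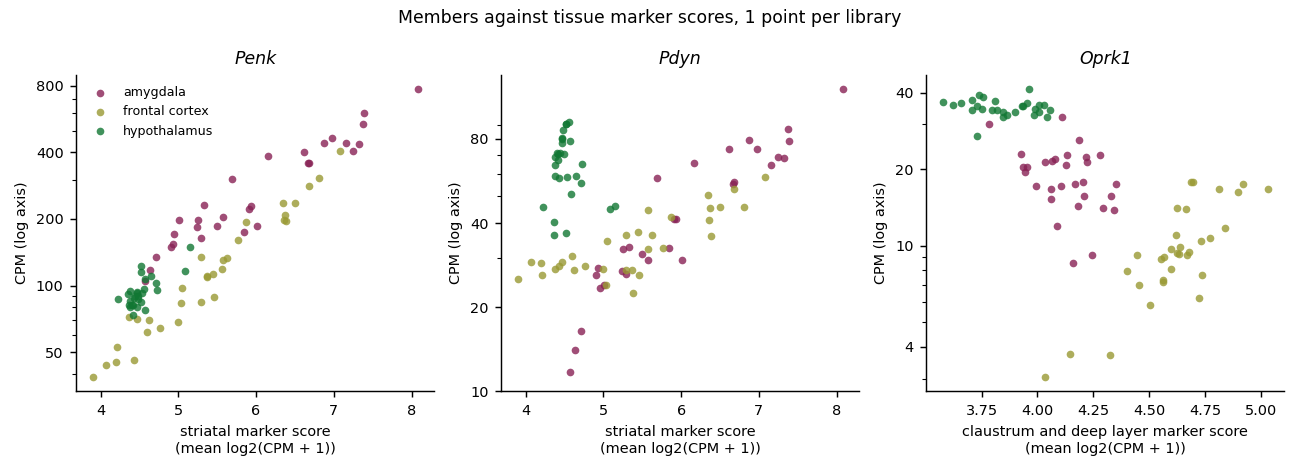
Penk, Pdyn and Oprk1 levels (CPM, log axis) against a marker score (mean log2(CPM + 1) of the list's genes) in each library, coloured by region. The striatal score is shown for Penk and Pdyn and the claustrum and deep layer score for Oprk1. Penk climbs with the striatal score along a narrow band in the amygdala (r = 0.97) and the frontal cortex (r = 0.98), while hypothalamus libraries bunch together.

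The genes whose deviations were most like those of each member were listed over the libraries of a region, among 14060 to 14360 genes with a mean of at least 1 CPM, which left out Oprm1 in the frontal cortex. For Penk in the frontal cortex these were Gng7 (r = 0.99), a striatum-enriched G protein subunit, the retinoic acid receptor Rarb (r = 0.99) and Serpina9 (r = 0.99). For Penk in the amygdala they were Prkch, Cd4 and the dopamine receptor Drd2 (r = 0.97 to 0.98), and 832 genes there had r over 0.8. Pdyn in the amygdala was most like Penk itself, Pde1c and Dlx6. Pnoc was most like Resp18 in both the amygdala and the frontal cortex, and in the hypothalamus like Rgs10 and Crh, the corticotropin-releasing hormone gene. Oprd1 in the frontal cortex was most like Ash1l (r = 0.95), a histone methyltransferase, and Adcy9. Oprk1 in the frontal cortex was most like Gnb4 (r = 0.89), a gene of the claustrum list, and in the amygdala like P2ry1, Pdyn and Mid2. Oprl1 was most like Zcchc18 in the amygdala (r = 0.97), Nap1l5 in the frontal cortex and Klhl26 in the hypothalamus. These are descriptions of shared spread over 28 to 32 libraries that also share dissection and depth.

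The same animals gave amygdala and hypothalamus, which allowed members to be compared between the dissections of 1 brain. Over 28 animals, Pdyn in the amygdala and Pdyn in the hypothalamus ran in opposite directions, with r = -0.73 (rho = -0.74, permutation adjusted p = 0.00021 over 21 tests) and -0.73 without the 2 farthest animals. Among 30 min animals, for example, control replicate 2 had 23.5 CPM of Pdyn in the amygdala and 92.1 CPM in the hypothalamus, while control replicate 5 had 56.3 and 36.9 CPM. Oprl1 did the reverse, being high or low in both dissections of an animal, with r = 0.72 (rho = 0.74, permutation adjusted p = 0.00042, 0.73 without the 2 farthest). Penk had r = 0.64 (rho = 0.62, permutation adjusted p = 0.037), which was 0.45 without the 2 farthest animals. None of the 14 pairs that involved the frontal cortex had an adjusted p below 0.05. Pdyn in each dissection also moved with marker lists, with the striatal score in the amygdala (r = 0.95) and the hypothalamic list in the hypothalamus (r = 0.89), and their part in the opposite levels was not tested.

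Exposure to the intruder was the question of the study, and none of the 7 genes passed the test for it in any region at any time. Of the 63 differences between intruder and control libraries in the fits without a block or covariate, 0 had an edgeR adjusted p below 0.05 and 0 had an unadjusted p below 0.05. DESeq2 and limma voom also called 0. The smallest unadjusted p was 0.0587. Over all genes the same comparisons called 0% in the amygdala at 30 and 60 min and 0.538% at 120 min, 0% at each time in the frontal cortex, and 0%, 0% and 0.192% in the hypothalamus. The ranges of intruder and control libraries overlapped in all 63, and the share of all genes with such an overlap was not counted. Of the differences, 37 were above 0 and 26 below, and their median size was 0.128 on the log2 scale, where the median over all genes lay between 0.0494 and 0.101. The 95% interval stayed within 1 log2 unit of 0 for 49 of the 63, which were 15 of 21 in the amygdala, 13 of 21 in the frontal cortex and 21 of 21 in the hypothalamus. A test of whether the effect differed between times called 0% of genes in the amygdala, 0% in the frontal cortex and 0.0113% in the hypothalamus. A test of whether it differed between regions called 0% at 30 min, 0% at 60 min and 0.0109% at 120 min. None of the 7 genes was among those called.

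For Penk the precision differed by region. Control amygdala libraries at 30 min held 600, 170, 399, 153 and 360 CPM and intruder libraries 384, 232, 197, 439 and 465 CPM. The intruder values lie within the range of the controls, and the difference was 0.03 ± 0.48 (log2, SE). At 60 min it was -0.27 ± 0.48, and at 120 min 0.32 ± 0.48, with intervals that reached from -1.26 to 1.31 over the 3 times. The value at 60 min rests on 1 library: without control replicate 6 it was 0.44. In the frontal cortex at 30 min, control libraries held 83.0, 52.6, 88.6, 45.2 and 110 CPM and intruder libraries 118, 281, 38.6, 69.7 and 109 CPM. One intruder library stands above all others while another is the lowest of the 10, and the difference was 0.70 ± 0.52 (95% interval -0.37 to 1.77). With the striatal score as a covariate the same difference was 0.09 ± 0.098, and at 60 min it was 0.07 ± 0.096 in place of 0.58 ± 0.52. In the hypothalamus Penk was measured more closely, at -0.20 ± 0.15, -0.22 ± 0.13 and 0.08 ± 0.13 at 30, 60 and 120 min. With the striatal score as a covariate these differences ran from -0.07 to 0.08.

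Pdyn and Pnoc had differences on both sides of 0. For Pdyn in the amygdala they were 0.13 ± 0.51, -0.28 ± 0.51 and 0.39 ± 0.51 at 30, 60 and 120 min, with intervals that reached from -1.33 to 1.44 over the 3 times. Frontal cortex Pdyn differed by 0.28 ± 0.21, 0.11 ± 0.21 and 0.05 ± 0.19, and in the hypothalamus by 0.29 ± 0.27, 0.18 ± 0.23 and -0.23 ± 0.23. With the first barcode of each library's label as a block, amygdala Pdyn was -0.05 ± 0.60 at 30 min and 0.50 ± 0.96 at 60 min. Frontal cortex Pdyn at 30 min was -0.08 ± 0.23 in that fit, and the other Pdyn differences fitted kept their sign. With the striatal score as a covariate, frontal cortex Pdyn ran from -0.03 to 0.10. Pnoc ran from -0.21 to 0.22 over the 9 comparisons.

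Among the receptors, the difference with the smallest unadjusted p was Oprd1 in the amygdala at 120 min. Control libraries there held 7.53, 11.1, 9.76, 10.7 and 11.3 CPM and intruder libraries 13.5, 10.6, 13.6, 8.90 and 14.6 CPM. Intruder libraries included the 3 highest values, and the groups overlapped. The difference was 0.28 ± 0.14 (1.21-fold, 95% interval 0.993 to 1.48, edgeR unadjusted p = 0.0587, adjusted p = 0.349). With the first barcode of each library's label (the library index) as a block it was 0.53 ± 0.24 (edgeR unadjusted p = 0.0367, adjusted p = 0.424). Oprk1 in the frontal cortex at 30 min differed by 0.67 ± 0.36 (edgeR unadjusted p = 0.0716), with control libraries at 3.75 to 9.86 CPM and intruder libraries at 3.04, 7.66, 17.4, 17.7 and 17.9 CPM. That difference was 0.37 ± 0.24 with the striatal score as a covariate and 0.24 ± 0.40 with the index block. Oprd1 in the hypothalamus at 120 min went the other way, at -0.26 ± 0.14 (edgeR unadjusted p = 0.0872, adjusted p = 0.4995). Oprm1 in the frontal cortex at 30 min differed by 0.60 ± 0.35 (edgeR unadjusted p = 0.0936), and by 0.33 ± 0.40 with the index block. Its control libraries held 0.501 to 0.808 CPM and its intruder libraries 0.645 to 1.38 CPM. Oprl1 gave the tightest limits within each region. Its 9 differences lay between -0.03 and 0.09, with standard errors from 0.053 to 0.109, and in the frontal cortex at 30 min the interval of its ratio ran from 0.916 to 1.09. Oprk1 in the hypothalamus was close behind, at 0.06 ± 0.079, 0.04 ± 0.068 and -0.08 ± 0.068.

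**Figure D3:**
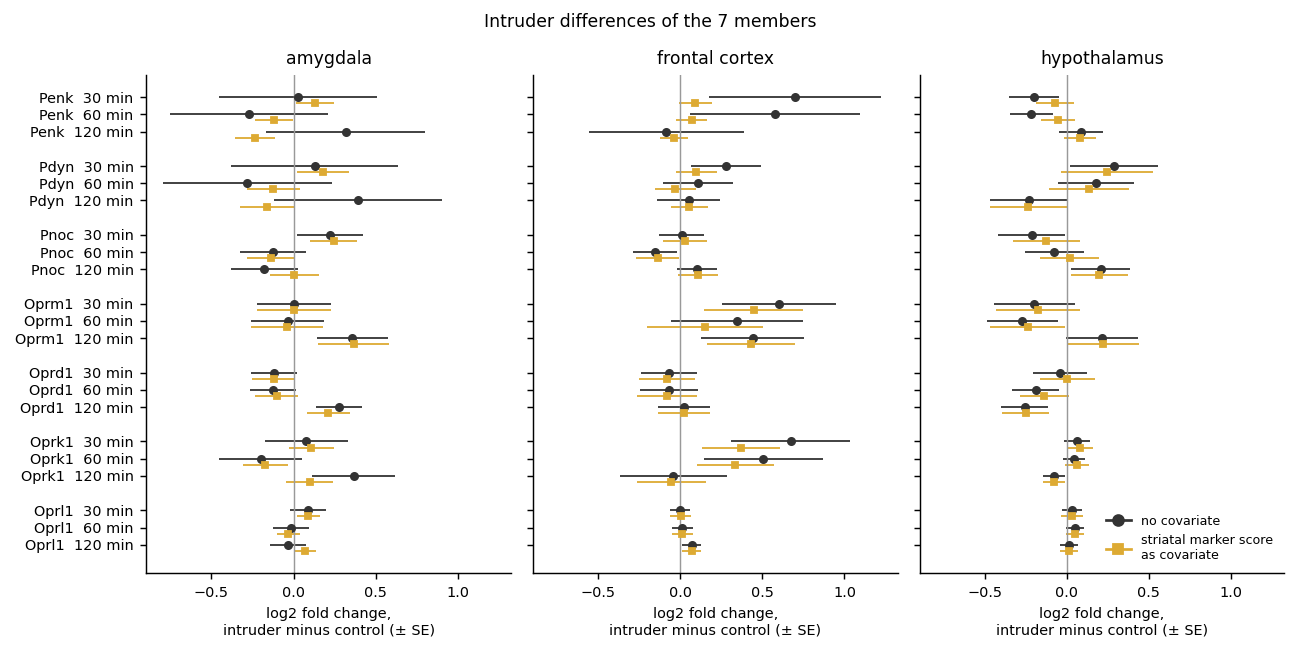
Intruder minus control difference (log2) for each gene, region and time, with bars of ± SE from the edgeR fits. Circles are the fit without a covariate and squares the fit with the striatal score as a covariate. All 63 of the 95% intervals without a covariate, which are not drawn, include 0. Without a covariate, the bars of Penk and Pdyn in the amygdala and of Penk in the frontal cortex are the widest. Those of Oprl1 in the frontal cortex and hypothalamus are the narrowest.

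Time after exposure was tested separately in control and in intruder animals. Here 2 receptors passed the test over the 3 times, both in the frontal cortex. Oprd1 in control frontal cortex held 23.3, 23.8, 19.6, 22.2 and 17.2 CPM at 30 min, 10.2, 14.8, 12.9, 8.78 and 13.0 CPM at 60 min, and 15.04 to 21.87 CPM (median 18.2, n = 6) at 120 min. The highest 60 min library (14.8 CPM) lay just below the lowest 120 min library (15.04 CPM) and further below the lowest 30 min library (17.2 CPM). The share of all genes that separated in this way was not counted. Oprd1 fell by 0.85 ± 0.18 between 30 and 60 min (edgeR adjusted p = 0.000532) and rose by 0.62 ± 0.17 between 60 and 120 min (edgeR adjusted p = 0.0165). The rise was no longer called without the 60 min control replicate 5 (0.53, adjusted p = 0.0725). The same course appeared in intruder animals, with 24.9, 16.4, 25.5, 17.6 and 16.5 CPM at 30 min, 19.2, 9.19, 11.1, 8.13 and 9.17 CPM at 60 min and 16.3 to 20.4 CPM (median 18.6, n = 6) at 120 min. Here 4 of the 5 libraries at 60 min lay below all libraries of the other times, and replicate 1 did not. Oprd1 fell by 0.84 ± 0.18 (edgeR adjusted p = 0.000262) and rose by 0.71 ± 0.17 (edgeR adjusted p = 0.00533). With the library index as a block that rise was 0.93 ± 0.32 and was no longer called (edgeR adjusted p = 0.0705), in a fit that called 0 of 17091 genes for this step.

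Oprm1 followed a like course in the frontal cortex at much lower levels. Intruder libraries held 0.645 to 1.38 CPM at 30 min, 0.127 to 1.17 CPM at 60 min and 0.626 to 1.73 CPM at 120 min, so the groups overlapped. It fell by 1.06 ± 0.36 between 30 and 60 min (edgeR adjusted p = 0.0171) and rose by 1.03 ± 0.35 between 60 and 120 min (edgeR adjusted p = 0.0320). The rise was not called with the index block (1.52 ± 0.70, edgeR adjusted p = 0.154). The test over all 3 times (edgeR adjusted p = 0.0257) was lost when intruder replicate 2, 3, 4 or 5 of the 60 min group was left out, with adjusted p from 0.0521 to 0.1005. The fall was lost without any 1 of 30 min replicate 1 and 60 min replicates 2 and 5 (adjusted p from 0.0558 to 0.0615). The rise was lost without any 1 of 60 min replicates 2 to 5 and 120 min replicates 1 and 4 (adjusted p from 0.0546 to 0.115). In controls the differences of Oprm1 were -0.80 ± 0.39 and 0.94 ± 0.37, and the test over the 3 times did not pass (edgeR adjusted p = 0.104). Whether the course of either receptor differs between controls and intruder animals was tested as the intruder effect between times, which gave an edgeR adjusted p of 0.990 for Oprd1 and 0.989 for Oprm1 in the frontal cortex.

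Changes with time were widespread in this region. In frontal cortex controls 33.4% of all genes were called for time and 1 of the 7 opioid genes. In intruder animals 46.1% were called, and 2 of the 7. With the striatal score as a covariate 2 of the 7 were called in controls and 3 in intruder animals, beside 36.8% and 49.7% of all genes. Between 30 and 60 min 18.1% of genes were lower in controls and 23.2% in intruder animals, and between 60 and 120 min 8.84% and 12.9% were higher. The share of reads that fell outside annotated genes took the same course, at 10.99 to 13.19% at 30 min, 8.633 to 10.29% at 60 min and 9.46 to 11.29% at 120 min in the frontal cortex. With that share as a covariate, an alternative chosen after seeing the data, 0 of the 7 genes were called for time in either condition, and 0.989% of all genes in controls and 1.07% in intruder animals. Oprd1 then differed by -0.31 ± 0.25 between 30 and 60 min in controls and by -0.20 ± 0.28 in intruder animals (edgeR adjusted p = 0.6003 and 0.773), and by 0.43 ± 0.17 and 0.54 ± 0.17 between 60 and 120 min (edgeR adjusted p = 0.168 and 0.0533). Oprm1 differed by 0.03 ± 0.57 and -0.08 ± 0.59 between 30 and 60 min in that fit. Within groups, frontal cortex Oprd1 had r = 0.43 with the share (rho = 0.50, 0.54 without the 2 farthest libraries, permutation adjusted p = 0.187) and Oprm1 r = 0.36 (rho = 0.33, 0.45 without them, permutation adjusted p = 0.211). Of 21 such tests over the 7 genes and 3 regions, 1 had an adjusted p below 0.05, that of Pnoc in the hypothalamus (r = -0.49, rho = -0.53, -0.42 without the 2 farthest, permutation adjusted p = 0.0336). The part of the share in these changes was not tested, and the step from 30 to 60 min cannot be told apart from the change of header tag.

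**Figure D4:**
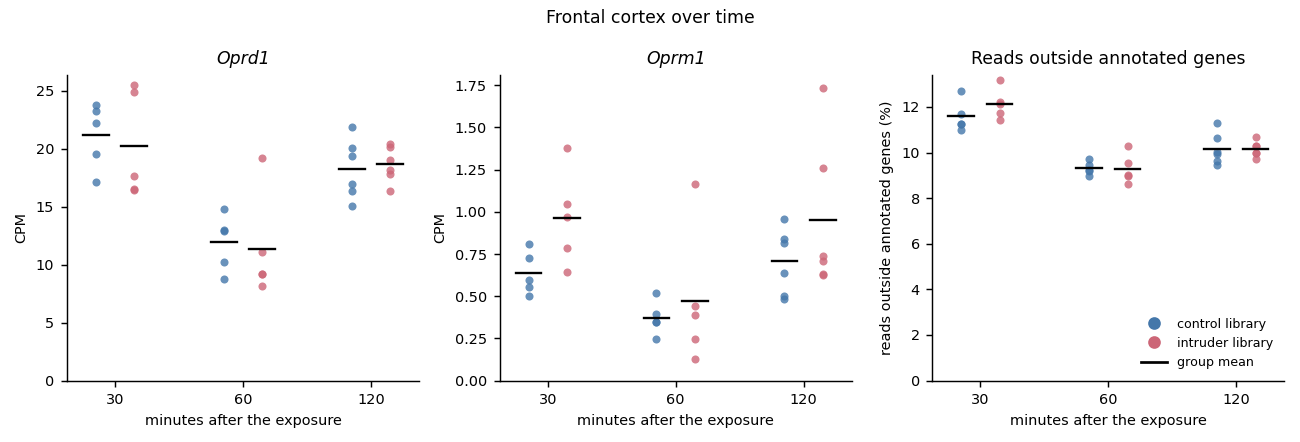
Oprd1 and Oprm1 levels (CPM) and the share of reads outside annotated genes (%) in each frontal cortex library at 30, 60 and 120 min, for control and intruder animals, with group means. All 3 have their lowest group means at 60 min, when 9 of 10 Oprd1 values are at most 14.8 CPM.

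In the amygdala and hypothalamus none of the 7 genes passed the edgeR test over the 3 times. That test called 0.232% of all genes in control amygdala and 0.181% in control hypothalamus, and 0 of the 7 opioid genes in either, by edgeR or DESeq2 and also at an unadjusted p below 0.05. In intruder animals it called 12.9% of genes in the amygdala and 1.49% in the hypothalamus, and again 0 of the 7, with 1 (Oprm1 in the amygdala) at an unadjusted p below 0.05 and called by DESeq2, which called 18.5% of all genes there. Each of these 4 sets held 21 single steps between times. An unadjusted edgeR p below 0.05 was found for 0 in control amygdala and 4 in intruder amygdala (Oprm1 in 2, Oprd1 and Pnoc). In the hypothalamus it was found for 2 in controls (Penk and Oprm1) and 0 in intruder animals. Of all these steps 1 passed after adjustment. The unadjusted counts have no share of all genes beside them, so they cannot be read against the background. Oprm1 in the amygdala of intruder animals came nearest, with 1.77, 2.01, 1.79, 2.02 and 1.24 CPM at 30 min, 2.21, 2.08, 1.74, 2.33 and 1.76 CPM at 60 min, and 2.90, 3.84, 2.34, 2.76 and 2.70 CPM at 120 min. The 120 min libraries lay above those of 30 min, but the lowest at 120 min (2.34 CPM) was almost level with the highest at 60 min (2.33 CPM). The share of all genes with groups set apart in this way was not counted. The test over the 3 times gave an edgeR adjusted p of 0.0558, and the single step from 30 to 120 min a rise of 0.72 ± 0.22 (edgeR adjusted p = 0.0279), a direction in which 8.86% of genes were called. This call was lost without any 1 of 30 min replicates 1, 3 and 5 or 120 min replicate 2 (adjusted p from 0.0558 to 0.0907). With the library index as a block the rise was 1.48 ± 0.55 and was not called (edgeR adjusted p = 0.354), in a fit that called 1 of 17277 genes for this step. The share of reads outside annotated genes also separated these libraries, at 10.78 to 11.95% at 30 min and 12.3 to 13.51% at 120 min, with no overlap. With that share as a covariate the rise was 0.44 ± 0.22 and was not called (edgeR adjusted p = 0.209). Over the 30 amygdala libraries Oprm1 had r = 0.55 with the share within groups (rho = 0.50, 0.52 without the 2 farthest libraries, permutation adjusted p = 0.211 over 21 tests), and the part of the share in the rise was not tested. With the striatal score as a covariate, 4 of the 7 genes passed over the 3 times in amygdala intruder animals: Oprm1, Pdyn, Penk and Pnoc (edgeR adjusted p from 0.0158 to 0.0411), beside 23.1% of all genes in that fit. In that fit Penk was lower at 60 than at 30 min (-0.37 ± 0.12) and lower at 120 than at 30 min (-0.41 ± 0.12), where the fit without the covariate gave -0.46 ± 0.48 and -0.16 ± 0.48.

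The wider opioid machinery was read from 48 genes in 4 lists: 8 for precursor processing and granules, 9 for peptide degradation, 27 for receptor signalling and 4 other opioid genes. All 48 were tested in every comparison, and 0 of them were called for the intruder in any of the 9 comparisons. At an unadjusted edgeR p below 0.05, 0 to 5 of the 48 passed. The counts of all genes at that threshold are given below, where the dependence on processing is described. With time, 14 of 48 were called in frontal cortex controls and 20 of 48 in frontal cortex intruder animals, beside 33.4% and 46.1% of all genes. Of the 27 signalling genes these were 9 and 12. Cacna1b, the N-type calcium channel subunit that opioid receptors inhibit, fell by 0.50 ± 0.07 between 30 and 60 min in controls and by 0.54 ± 0.07 in intruder animals (edgeR adjusted p = 2.24e-05 and 1.79e-06). Wls, a Wnt cargo receptor that binds the mu receptor, fell by 0.24 ± 0.05 and 0.34 ± 0.05 (edgeR adjusted p = 0.000261 and 2.06e-06). In amygdala intruder animals 8 of 48 were called, beside 12.9% of all genes. Among them was Lnpep, an enkephalin-cleaving aminopeptidase, which rose by 0.84 ± 0.16 between 30 and 120 min (edgeR adjusted p = 0.00119). For that step 9 of the 48 were called, 3 higher and 6 lower, where 8.86% of all genes were called higher.

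Between regions most of the 48 differed. Against the frontal cortex, 42 were called in the control hypothalamus (17 higher, 25 lower) and 38 in the amygdala (16 higher, 22 lower). Of all genes, 42.4% were higher and 39.6% lower in the hypothalamus, and 36.4% and 31.2% in the amygdala. The processing list was mostly higher in the hypothalamus (5 higher and 2 lower of 8) and the signalling list mostly lower (6 higher and 17 lower of 27). Ece2, an endothelin-converting enzyme that also cleaves opioid peptides, was higher by 2.61 ± 0.06 in the hypothalamus and by 1.58 ± 0.06 in the amygdala (edgeR adjusted p = 5.96e-53 and 4.81e-39). Gprasp1, which sorts internalised delta receptors to lysosomes, was higher by 1.63 ± 0.04 and 1.01 ± 0.04, while Rgs4, a GTPase activator of the inhibitory G proteins, was lower in the hypothalamus (-2.21 ± 0.08). Pomc, the beta-endorphin precursor, was lower in the amygdala than in the hypothalamus (-5.09 ± 0.28, edgeR adjusted p = 5.85e-28).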

How the data were processed

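Messenger RNA libraries (TruSeq Stranded, single-end) from 3 brain regions were deposited by the authors as 1 table of raw read counts per Ensembl gene, and all 90 columns were matched to a sample by name. The submitters' processing notes name CASAVA 1.8.2, TopHat2 2.0.8, HTSeq 0.6.1, edgeR 3.2.4, R 3.0.0 and the genome build NCBIM37, without their roles. Whether counting used strand is not given in the sources used here. Gene symbols were assigned to 32919 of 37991 identifiers. The 5 rows that name no gene stayed out of library sizes: reads without a feature were 8.633 to 14.457% and reads without a unique place 9.786 to 11.503% of a column.

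Counts were scaled by TMM, filtered with filterByExpr and tested with edgeR 4.0.16 (quasi-likelihood F test, R 4.3.3), in 1 fit per region over its 6 groups for intruder and time effects and 1 fit over 18 groups for regions, with Benjamini-Hochberg adjustment over all genes of a fit and calls at an adjusted p below 0.05. Tests were two-sided. The fitting functions were first tested on simulated counts for the frontal cortex design. The 7 genes, the pathway and marker lists and the tests were chosen with earlier results of these data known. All members are named. Pathway genes named in a comparison came from the 3 called genes with the smallest adjusted p over all pathway lists together. For each member and region the 3 genes with the highest correlation were listed, of which some are printed. Oprm1 in the frontal cortex (mean under 1 CPM) was left out of that listing. Marker and member correlations used log2(CPM + 1). The striatal score uses all 10 genes of its list, of which 1 is not reported here by itself. Alternatives were DESeq2 1.42.0, limma 3.58.1 (voom), RLE scaling, no filter, blocks for replicate number, animal and library index, the striatal score or the no-feature share as a covariate, only the groups compared, and leaving out each library. Same-group libraries differed by a chi-square of at least 4.2 per gene over 183 pairs, so none was counted as a repeat. Animal labels pair the regions of 1 animal. Replicate numbers did not pair intruder with control animals.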

Additional observations from a re-analysis of the deposited data

Results flagged for a closer look

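Single libraries stood apart from the rest of their group in 9 of the 119 combinations of gene and group with 4 to 10 libraries, by a gap to the nearest library that was large against the range of the group (Dixon's test). Chance gives about 1 in 20. In the amygdala at 60 min, control replicate 6 was far above the other 4 controls for Penk (773 CPM, next 197), Pdyn (121 CPM, next 29.6) and Oprk1 (32.2 CPM, next 16.6), and its striatal score of 8.08 was the highest of the 90 libraries. The hypothalamus of the same animal, also control replicate 6 at 60 min, was highest in its group for Penk (149.9 CPM, next 95.5). In the frontal cortex at 120 min, intruder replicate 1 was highest for both Pnoc (8.99 CPM, next 6.03) and Oprl1 (56.3 CPM, next 45.5). In the frontal cortex at 60 min, intruder replicate 1 held 19.2 CPM of Oprd1, next 11.1. Oprm1 stood apart in the amygdala 30 min control replicate 3 (2.19 CPM, next 1.74) and in the hypothalamus 60 min intruder replicate 5 (6.13 CPM, next 4.36). What sets these libraries apart was not tested.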

How the results depend on the processing

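None of the 7 genes was called for the intruder in any of 295 alternative fits, which included DESeq2, limma voom and every library left out in turn. Signs of these small differences changed in 0 of 63 with DESeq2, RLE scaling or no filter, 4 with voom, 7 with the striatal covariate, 11 of 56 with library index as a block and 65 of 630 leave-outs. Penk in the amygdala at 60 min was 0.60 with the index block, and in the frontal cortex at 30 min -0.07. For time, the number of the 7 genes called in frontal cortex controls was 1, 2 with the striatal covariate (36.8% of all genes) and 0 with the no-feature share as a covariate. In frontal cortex intruder animals it was 2, 0 with the no-feature share, 3 with the striatal covariate (49.7% of all genes) and 1 to 3 in leave-outs, which called 6625 to 8642 of all genes. In amygdala intruder animals it was 0, 4 with the striatal covariate (23.1% of all genes) and 1 with DESeq2 (Oprm1, adjusted p = 0.0222, beside 18.5% of all genes). The cause was not tested. Counts of all genes for the intruder at 120 min also moved: 93 in the amygdala were 12 without a filter, 199 with the replicate block, 148 with the striatal covariate, 263 with the no-feature share, 399 with DESeq2, 0 with the index block or only the 2 groups and 6 to 218 in leave-outs, and 34 in the hypothalamus were 6 with the replicate block, 98 with DESeq2, 103 with the no-feature share, 0 with only the 2 groups and 19 to 53 in leave-outs. At an unadjusted p below 0.05, 339 to 2617 genes passed per region and time. In the frontal cortex the no-feature share took the genes called for time from 5704 to 169 in controls and from 7875 to 183 in intruder animals. In amygdala intruder animals 2225 genes called for time were 1181 with that share, 3985 with the striatal covariate and 2 with the index block. Pdyn between amygdala and frontal cortex was also lost with DESeq2 (adjusted p = 0.0514). The index block could not be fitted for the frontal cortex at 120 min or for time over 3 points in the frontal cortex and hypothalamus. Replicate numbers did not pair the animals: 15 of 41 same-numbered pairs of libraries had correlated deviations over 0.1 (r from -0.696 to 0.709), and with the replicate block 0 of the 7 genes were called and 7 of 63 signs changed. With the animal as the block between regions, 6 of the 7 genes were called in each of the 3 comparisons. Depth limits Oprm1 most, with 6 to 366 reads per library.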
